A study of Rattus norvegicus with 74 samples.

Results

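The rat miRNAs rno-miR-99a-5p, rno-miR-99b-5p, rno-miR-100-5p, rno-miR-125a-5p and rno-miR-125b-5p, with their partner strands, were followed in the kidneys of untreated F344 (Fischer) rats over the life span. All strands carrying one of these names were taken from the array, whatever their arm or copy, and kept where at least 1 array detected them. Of 11 strands on the array 9 were kept, among the 311 miRNAs detected at least once and the 677 measured. Whole kidneys of 74 animals were profiled on 74 single-colour arrays, 36 from females and 38 from males. Both sexes were sampled at 2 weeks, then at 5, 6 and 8 weeks, and later at 15 and 21 and at 78 and 104 weeks, with 4 or 5 animals each, and the control for every age was another age of the same strain, since no animal received a treatment. The methods state that females were not matched for estrous stage and that whole kidney was ground, so every cell type of the organ entered each sample.

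A miRNA guides the silencing complex to messenger RNAs that pair with its seed, the bases near its 5′ end, and lowers their output. The miRNAs of the miR-99, miR-100 and miR-125 names lie in 3 genomic clusters, each with a miR-99 or miR-100 gene, a let-7 gene and a miR-125 gene. The mTOR kinase and the insulin-like growth factor receptor are known targets of miR-99 and miR-100, miR-125 is the relative of the worm timing miRNA lin-4, and let-7 is the classical miRNA of maturation. In RefSeq (GRCr8, plus strand) the chr1 cluster runs from Mir99b at chr1:67350064-67350133 through Mirlet7e at chr1:67350229-67350321 to Mir125a at chr1:67350675-67350759, within 696 bases. The chr8 cluster holds Mir100 at chr8:50798295-50798374, Mirlet7a-2 and Mir125b1 and spans 51828 bases. The chr11 cluster holds Mir99a at chr11:29687392-29687472, Mirlet7c1 and Mir125b2 and spans 45257 bases as far as the last listed strand. Mature miR-125b-5p comes from both of the latter clusters, so its array signal cannot be divided between them.

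Mature sequences matched by name in RefSeq (GRCr8) for 8 of the 9 members. The member without a match was miR-99a-5p, so its seed and sequence were not compared with the others here. The strands below are some of those whose changes are described in this section, with the seed (bases 2 to 8) in capitals:
rno-miR-99b-5p: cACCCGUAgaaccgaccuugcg
rno-miR-100-5p: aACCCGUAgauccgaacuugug
rno-miR-125a-5p: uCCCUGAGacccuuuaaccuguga
rno-miR-125b-5p: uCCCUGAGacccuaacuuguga
rno-miR-99a-3p: cAAGCUCGuuucuaugggucug
rno-let-7e-5p: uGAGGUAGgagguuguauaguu

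The seed was the same in miR-99b-5p and miR-100-5p, which differed at 4 of 22 positions, written from miR-100-5p to miR-99b-5p and counted from the 5′ end as A1C, U11A, A16C and U21C. The other seed was shared by miR-125a-5p and miR-125b-5p, whose first 13 bases were identical. The miR-99a-3p seed was also that of miR-99b-3p. How far the probes of 1 strand bound a relative was not tested.

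The 5 strands of the 5′ arm (5p) were detected on all 74 arrays. Median scanner signals were 1943 for miR-125b-5p, 1060 for miR-99a-5p, 635 for miR-125a-5p, 264 for miR-99b-5p and 130 for miR-100-5p, and these are listed without comparison since different probes set them. Of the 3′ arm (3p), miR-125a-3p was detected on 74 arrays at a median signal of 25.8, miR-99a-3p on 72 at 7.9, and miR-99b-3p on 72 at 3.43. MiR-125b-2-3p was detected on 5 arrays with signals from 1.4 to 2.38, all at or below the floor after scaling, so it had no measurable difference. MiR-100-3p and miR-125b-1-3p were not detected on any array. Levels below are total gene signals divided by the array's 75th percentile over the 311 detected miRNAs, which ranged from 81.2 to 282.5, and levels under 0.0171 were set to that floor. An array detected 190 to 264 miRNAs. The number of arrays limits the precision of every value.

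The kidney label was compared with marker miRNAs. Of 8 strands of the tubule miRNAs miR-192, miR-194, miR-204 and miR-30a, 5 were detected on all arrays, and their summed level lay between 22.0 and 51.8. Of the 12 striated muscle strands 3 were detected, with a summed level of 0.0538 to 0.325, and the neural strands summed to between 0.0761 and 0.464. The liver miRNA miR-122 had a median summed level of at most 0.562 in every group, and 1 male array each at 2, 5 and 6 weeks stood at 23.8, 3.94 and 5.87. Slides also entered the design: the ages of 2 to 8 weeks were hybridised on 5 slides and the later ages on 5 others, apart from 1 array of a 15-week female. Differences between an age up to 8 weeks and one from 15 weeks therefore cannot be told apart from the slides. The comparison of 2 with 5 to 8 weeks and that of 15 to 21 with 78 to 104 weeks each stay within a set apart from that array, whereas the test over all 8 ages, the 8-to-15-week step and the group means over all ages span both.

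MiR-100-5p and miR-99b-5p fell after 2 weeks of age in both sexes, miR-125b-5p fell by less than miR-99b-5p in both, and miR-125a-5p fell in males. MiR-99a-5p did not pass the test in either sex, whereas with the slide as a fixed or random block its male value of 0.18 or 0.17 on the log2 scale passed. Comparing 2 weeks with the mean of 5, 6 and 8 weeks, 3 of 9 members were lower at the later ages in females and 0 higher, while 4 were lower and 1 was higher in males (limma, Benjamini-Hochberg adjusted over 311 miRNAs). Of all 311 miRNAs, 21.9% were lower and 15.4% higher in females, and 25.4% lower and 25.1% higher in males. The median change on the log2 scale was -0.19 over the members in females and -0.31 in males, and 0.00 over all miRNAs in both. At an unadjusted p under 0.05 the members passing numbered 3 in females and 7 in males.

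The 2-week females had miR-99b-5p levels of 1.81, 2.20, 2.26 and 2.10, and the 13 females of 5 to 8 weeks ranged from 1.32 to 2.39 with a median of 1.55. The 2-week males read 2.23, 2.47, 2.52, 2.57 and 2.93, against 1.28 to 2.18 with a median of 1.66 in 14 older males. In females 12 of 13 later arrays lay below every 2-week array, and in males the age groups did not overlap, a pattern that 12.2% of all miRNAs showed in that direction. The log2 change was -0.39 ± 0.089 (SE, adjusted p = 0.000697) in females and -0.62 ± 0.084 (adjusted p = 1.48e-07) in males, or 0.764-fold and 0.649-fold. Within single slides it was below 0 on 4 of 4 slides in females and on 5 of 5 in males. The female call was lost with the percentile over all miRNAs (-0.277), quantile normalization (-0.131) or a model-based background correction, normexp (-0.148). The normexp setting adds an offset of 50 to each spot, which draws the log2 changes of weak strands towards 0.

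For miR-100-5p the 2-week females read 0.85, 1.54, 1.34 and 1.22, and the 13 later females 0.672 to 1.0 with a median of 0.892. The 2-week males read 1.07, 1.51, 1.46, 1.25 and 1.32, and the 14 later males 0.723 to 1.04 with a median of 0.918. One 2-week female lay inside the later range, whereas the male groups did not overlap. The log2 change was -0.49 ± 0.11 (adjusted p = 0.000466) in females and -0.54 ± 0.086 (adjusted p = 2.58e-06) in males. Each of the 2 probes of miR-100-5p fell in both sexes, by 0.67 and 0.45 in females and 0.82 and 0.47 in males on the log2 scale. With normexp the female change was -0.23 and did not pass.

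MiR-125b-5p, the miRNA of its group with 2 genes, had 2-week levels of 12.1, 13.5, 14.0 and 13.2 in females and 11.8, 13.5, 12.7, 14.6 and 15.2 in males. Later females ranged from 10.3 to 13.3 and later males from 9.36 to 13.7, so the age groups overlapped in both sexes. Its log2 change was -0.19 ± 0.053 (adjusted p = 0.00573) in females and -0.21 ± 0.071 (adjusted p = 0.0144) in males. The male call was lost without 2-week male replicate 4 or 5, with log2 changes of -0.182 and -0.166, and both sexes' calls were lost with the percentile over all miRNAs (-0.0756 and -0.172) or normexp (-0.0796 and -0.20), and the male one without outlier spots (-0.152). MiR-125a-5p changed by -0.31 ± 0.082 (adjusted p = 0.00169) in males, from 2-week levels of 5.11, 4.85, 4.42, 5.97 and 4.95 to a later range of 3.24 to 5.06, a call lost with the percentile over all miRNAs (-0.275). In females its log2 value was -0.11 ± 0.11 (adjusted p = 0.504), and the ages overlapped. For none of these did the change differ between the sexes by the test of the difference, where the lowest adjusted p over the members was 0.222.

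MiR-99a-5p read 5.18, 7.17, 6.70 and 6.04 in 2-week females and 5.27 to 7.26 later, which overlapped almost wholly. In males the 2-week levels were 5.05, 6.11, 5.96, 5.28 and 5.32 and the later range 5.09 to 8.00. The log2 values were -0.01 ± 0.080 (adjusted p = 1) and 0.17 ± 0.079 (adjusted p = 0.0787). Its 3p strand rose in males by 0.84 ± 0.20 on the log2 scale (adjusted p = 0.000592), the 1 member higher after 2 weeks. Those 2-week male levels were 0.0459, 0.0171, 0.0354, 0.0188 and 0.0335, near the floor, and 11 of 14 later males lay above all of them. One of the 5 was undetected and set to the floor, and the 2 probes above 0 on all arrays gave male changes of 0.53 and 0.43. With normexp, whose offset shrinks the changes of so weak a strand, the value was 0.153 and did not pass. In females the miR-99a-3p value was 0.25 ± 0.21 (adjusted p = 0.428).

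**Figure D1:**
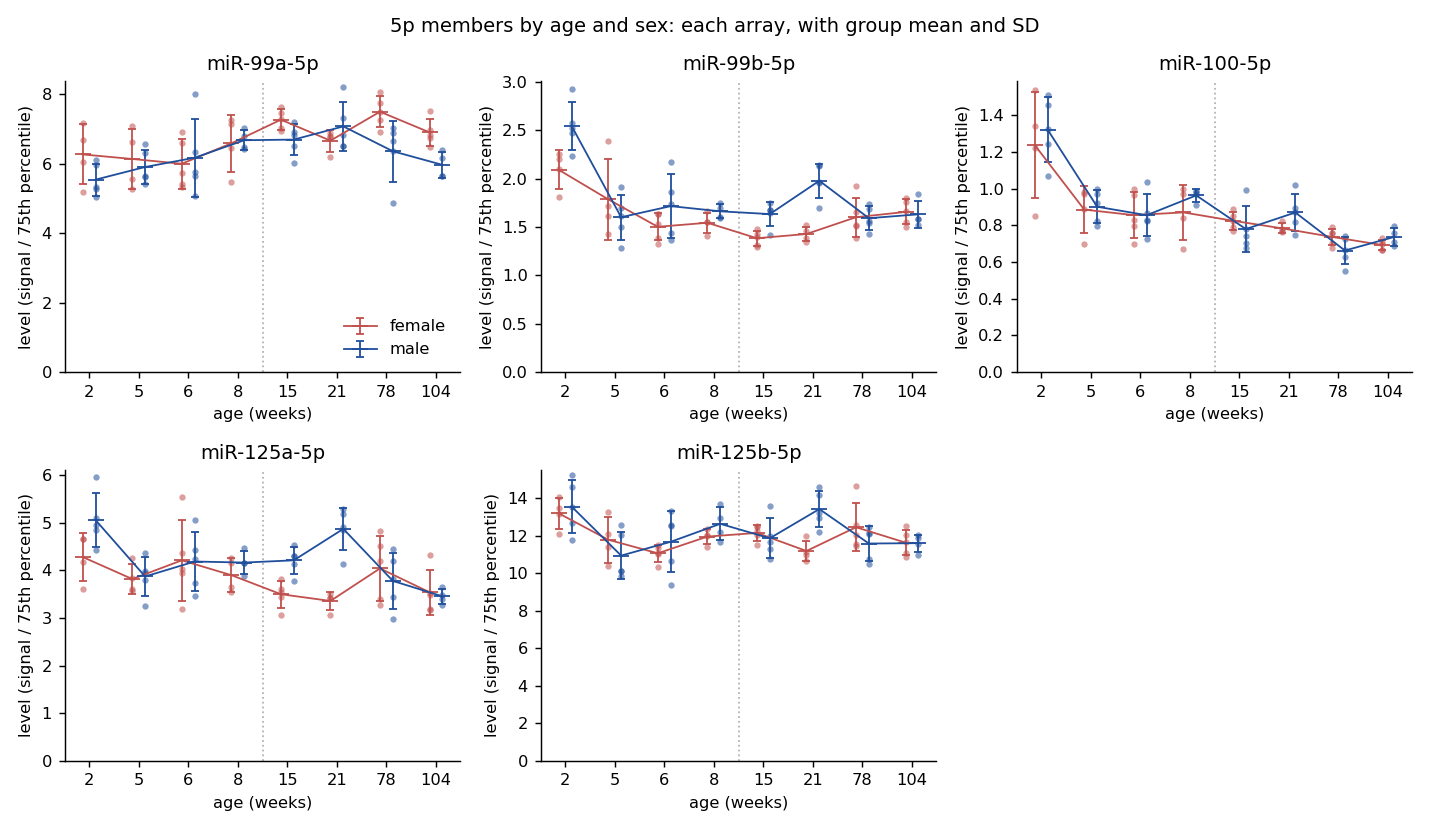
Level (total gene signal over the array's 75th percentile) of the 5 strands of the 5′ arm against age in weeks, with a point for each array, a bar for the group mean ± SD, females in red and males in blue, and a dotted line between the 2 sets of slides. MiR-99b-5p and miR-100-5p were highest at 2 weeks, where the male means were 2.54 and 1.32.

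Each age was also compared with the next. The share of all miRNAs passing each step was not counted, so the calls below have no baseline. From 2 to 5 weeks in males miR-99b-5p, miR-100-5p, miR-125a-5p and miR-125b-5p passed, with log2 changes of -0.68, -0.55, -0.39 and -0.31, while miR-99a-3p rose by 0.69 and miR-125a-3p changed by -0.64. In females miR-100-5p passed that step, with a log2 change of -0.46 ± 0.13 (adjusted p = 0.00712). None of the members passed a step between 5 and 21 weeks in either sex, the step between the sets of slides among them, so no order of neighbouring levels there was resolved beyond their spread. In males the step from 21 to 78 weeks passed for miR-100-5p, miR-125a-5p and miR-99b-5p, with log2 changes of -0.39, -0.38 and -0.31, and for miR-99b-3p at -0.71 and miR-125a-3p at 0.73. Mean miR-125a-3p levels went down and up in turn, at 0.225, 0.142, 0.242, 0.139, 0.229, 0.127, 0.213 and 0.119 from 2 to 104 weeks in males. The female means alternated likewise, at 0.216, 0.169, 0.202, 0.174, 0.255, 0.136, 0.283 and 0.149. The passing steps of miR-125a-3p therefore form no trend with age. In females none passed after 5 weeks.

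Mean miR-100-5p levels in females were 1.24 ± 0.29, 0.886 ± 0.13, 0.856 ± 0.12, 0.871 ± 0.15, 0.825 ± 0.048, 0.784 ± 0.027, 0.737 ± 0.045 and 0.694 ± 0.028 at the 8 ages in turn (SD, n = 4 or 5). In males they were 1.32 ± 0.18, 0.902 ± 0.090, 0.855 ± 0.11, 0.963 ± 0.034, 0.78 ± 0.13, 0.87 ± 0.10, 0.663 ± 0.075 and 0.737 ± 0.047. The highest mean of each sex was at 2 weeks and the lowest at 78 or 104 weeks, 1.99-fold apart over the 16 groups, a span that crosses the 2 sets of slides and cannot be told apart from them. Mean miR-99b-5p levels ran 2.09 ± 0.20, 1.79 ± 0.42, 1.5 ± 0.14, 1.54 ± 0.10, 1.38 ± 0.077, 1.43 ± 0.074, 1.60 ± 0.20 and 1.66 ± 0.13 in females. The male series was 2.54 ± 0.25, 1.60 ± 0.23, 1.72 ± 0.33, 1.66 ± 0.074, 1.63 ± 0.13, 1.98 ± 0.18, 1.59 ± 0.12 and 1.63 ± 0.14, with a second high value at 21 weeks. MiR-125a-5p had its lowest group mean in 21-week females, 3.36 ± 0.20, and its highest in 2-week males, 5.06 ± 0.57.

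The lowest group mean of miR-99a-5p was in 2-week males, 5.54 ± 0.46, and the highest in 78-week females, 7.50 ± 0.44, again on different sets of slides. The group means of miR-125b-5p lay within 1.24-fold of each other, between 10.9 ± 1.3 in 5-week males and 13.6 ± 1.4 in 2-week males. Over all 8 ages, 4 of 9 members passed the age test in females (miR-99a-5p, miR-99b-5p, miR-100-5p and miR-125b-5p) and 7 of 9 in males, against 49.8% and 58.8% of all miRNAs. This test includes the step between the sets of slides, so age and slide set cannot be told apart in it. With a fold of 1.5 between at least a pair of ages also required, miR-99b-5p and miR-100-5p remained in females (36.7% of all miRNAs), and these with miR-125a-3p and miR-99a-3p in males (45.3%). For miR-125a-3p this call reflects means that went down and up in turn, not a trend.

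Between 15 to 21 weeks and 78 to 104 weeks, miR-125a-5p and miR-100-5p fell in males, 2 of 9 members, where 20.3% of all miRNAs fell and 9.32% rose. With the slide as a fixed block 6 male members passed, all lower, miR-99a-5p (-0.17), miR-99b-5p (-0.17), miR-125b-5p (-0.12) and miR-99b-3p (-0.46) among them. By the methods' test 3 of 9 members passed in males, and 5 had an unadjusted p under 0.05 with limma. In females 0 of 9 members passed with limma or with the methods' test, and 1 had an unadjusted p under 0.05, where 3.54% of all miRNAs fell and 5.79% rose. With the slide as a fixed block miR-100-5p passed in females (-0.16), and as a random block miR-99b-5p did (0.21). The median log2 change over the members was -0.16 in males and 0.13 in females, against -0.04 and 0.01 over all 311 miRNAs. Over the 166 miRNAs detected on all arrays it was -0.12 in males and 0.056 in females. The male member median therefore lay close to that of the always detected miRNAs.

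The 10 males of 15 to 21 weeks had miR-125a-5p levels from 3.78 to 5.29 with a median of 4.42, and the 9 males of 78 to 104 weeks from 2.98 to 4.45 with a median of 3.49. Of these, 6 lay below every younger male. The log2 change was -0.33 ± 0.072 (adjusted p = 0.000533). For miR-100-5p the male medians were 0.799 and 0.71, and the change was -0.23 ± 0.076 (adjusted p = 0.0181). In females the values were 0.13 ± 0.085 (adjusted p = 0.495) for miR-125a-5p and -0.17 ± 0.087 (adjusted p = 0.296) for miR-100-5p, although 9 of 10 older females lay below every younger female in miR-100-5p.

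Female miR-99b-5p had a log2 change of 0.21 ± 0.072 (adjusted p = 0.0686), with 7 of 10 older females above all 9 younger ones, and male miR-99b-5p one of -0.16 ± 0.074 (adjusted p = 0.111). The late change differed between the sexes by its own test for miR-125a-5p, by -0.46 ± 0.11 in males minus females (adjusted p = 0.00119), for miR-99b-5p, by -0.37 ± 0.10 (adjusted p = 0.00596), and for miR-99b-3p, by -0.65 ± 0.25 (adjusted p = 0.0497). These differences stayed below 0 under every setting that kept all arrays, but none passed with the percentile over always detected miRNAs, over all miRNAs or with normexp, and miR-125a-5p did not pass with quantile normalization. MiR-99b-3p lay at the floor on 10 arrays and failed under 7 settings in all. Its 3 probes above 0 on all arrays disagreed, with late log2 changes of -0.11, -0.29 and -0.23 in males and -0.55, -0.12 and 0.25 in females. The male falls depended on the scaling. Scaling to the 75th percentile of only the 166 always detected miRNAs moved the male median of those miRNAs from -0.12 to 0.11, and miR-125a-5p and miR-100-5p had values of -0.103 and -0.00382 without passing, while male miR-99a-5p, miR-99b-5p, miR-125b-5p and miR-125a-3p, which had not passed, turned above 0 (0.06, 0.07, 0.11 and 0.15). Both calls were also lost with the percentile over all miRNAs (-0.319 and -0.22), that of miR-125a-5p with quantile normalization (-0.157) and that of miR-100-5p with normexp (-0.151).

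**Figure D2:**
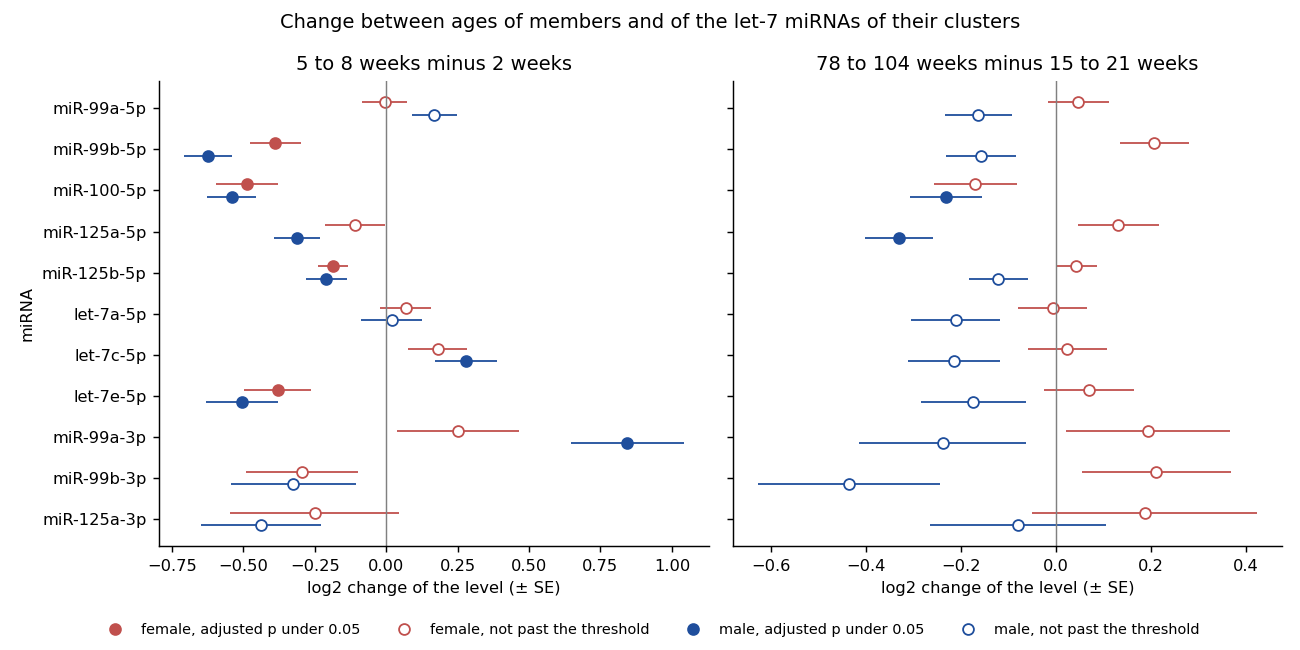
Change of the log2 level (± SE) from 2 weeks to 5 to 8 weeks (left) and from 15 to 21 to 78 to 104 weeks (right) in females (red) and males (blue), filled where the adjusted p was under 0.05. On the left miR-99b-5p, miR-100-5p and let-7e-5p lie below 0 in both sexes, from -0.38 to -0.62, and on the right the male values are all below 0, of which miR-99a-5p, miR-99b-5p, miR-125b-5p and miR-125a-3p turn above 0 when scaled to the percentile over always detected miRNAs.

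Males had more miR-99b-5p and miR-125b-5p than females at 21 weeks, beside more miR-125a-5p. Of 9 members at 8 ages, 4 differences passed: these 3 at 21 weeks, when 10.3% of all miRNAs passed, and miR-99a-5p, lower in males, at 78 weeks, when 20.3% passed. With the slide as a fixed block 8 passed. At the other ages 10.9% (2 weeks), 0% (5 weeks), 0.322% (6 weeks), 1.93% (8 weeks), 8.04% (15 weeks) and 20.3% (104 weeks) of all miRNAs passed. None of the 4 differences that passed without the slide block reached a fold of 1.5. The 21-week females read 1.46, 1.52, 1.35 and 1.39 for miR-99b-5p and the males 2.14, 1.70, 1.96, 1.97 and 2.13. The groups did not overlap, as held for 7.4% of all miRNAs with males higher at that age, and the difference was 0.47 ± 0.11 on the log2 scale (adjusted p = 0.00108), 1.38-fold. On each of the 4 slides with both sexes at 21 weeks the male array was higher. The call was lost with the percentile over always detected miRNAs (0.303) or normexp (0.355).

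MiR-125b-5p read 12.0, 11.1, 10.97 and 10.68 in those females and 14.2, 12.2, 12.96, 13.2 and 14.6 in those males. No female reached the lowest male, and the difference was 0.26 ± 0.079 (adjusted p = 0.022). This call was lost without female replicate 5 or 6 or male replicate 1 or 5 of that age, with values of 0.252, 0.239, 0.241 and 0.231, and under 5 of the other settings, at 0.0974 to 0.335, with males higher throughout. MiR-125a-5p ranged from 3.07 to 3.51 in females and 4.14 to 5.29 in males, with means 1.45-fold apart, and its call was lost with quantile normalization (0.306) or normexp (0.384). At 15 weeks, the age before, its log2 difference was 0.27 ± 0.11 and that of miR-99b-5p 0.24 ± 0.10, with adjusted p-values of 0.12 and 0.145, and at 78 weeks both were under 0.1 in size.

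MiR-99a-5p was lower in males at 78 weeks by -0.25 ± 0.093 (adjusted p = 0.0481), with female levels of 7.27, 8.08, 7.49, 7.75 and 6.92 against 6.89, 7.02, 6.66, 6.38 and 4.86. One male lay above the lowest female, and leaving out any 1 of 22 arrays among the 74 took the adjusted p past 0.05, with a value of -0.154 without 78-week male replicate 6. It was lost under 8 other settings too, at -0.248 to -0.00415. At 104 weeks the groups did not overlap, with females at 6.47 to 7.52 and males at 5.65 to 6.399, as held for 14.1% of all miRNAs with males lower at that age, but the adjusted p was 0.128. Over all ages, the age by sex interaction passed for miR-99b-5p (adjusted p = 0.0191) and miR-125a-5p (adjusted p = 0.0192), 2 of 9 members beside 27.7% of all miRNAs, while miR-100-5p had an adjusted p of 0.676. Neither interaction passed with the percentile over always detected miRNAs, over all miRNAs or with normexp, nor did miR-99b-5p without outlier spots or miR-125a-5p with quantile normalization. Without 21-week female replicate 3, 1 of 9 members passed.

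**Figure D3:**
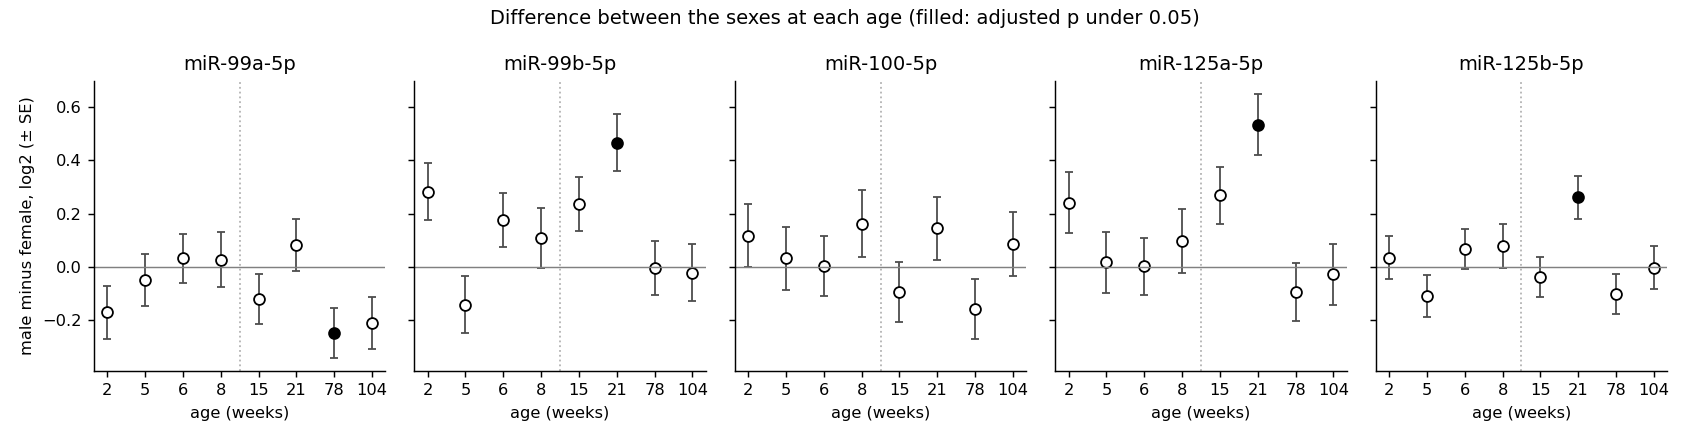
Male minus female difference of the mean log2 level (± SE) at each of the 8 ages for the 5 strands of the 5′ arm, filled where the adjusted p was under 0.05. MiR-99b-5p, miR-125a-5p and miR-125b-5p have their highest value at 21 weeks, at 0.47, 0.53 and 0.26.

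Ratios of 2 strands on the same array do not depend on the scaling to a percentile, though they do on the background correction and on quantile normalization, which left 4 and 10 of the tests below. Of 10 pairs of 5p strands, each tested in 2 age comparisons and 2 sexes, 16 of 40 tests passed an exact two-sided permutation test after adjustment over the 40. How often pairs of other miRNAs would pass was not tested, so these counts have no baseline. Early in life 3 of 10 pairs passed in females and 6 of 10 in males, and later 5 of 10 in females and 2 of 10 in males.

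MiR-100-5p fell relative to miR-99a-5p in each sex after 2 weeks. The 2-week ratio lay between 0.164 and 0.215 in females and between 0.212 and 0.249 in males, and at 5 to 8 weeks between 0.122 and 0.160 and between 0.129 and 0.173. These ranges did not overlap, and the log2 ratio changed by -0.48 in females (exact p = 0.00042, adjusted p = 0.0024) and -0.71 in males (exact p = 8.6e-05, the smallest the male arrays allow, adjusted p = 0.000688). Both ratios of miR-99a-5p and miR-125b-5p to miR-99b-5p rose, by 0.38 and 0.20 in females and 0.79 and 0.41 in males. The ratio of miR-125a-5p to miR-125b-5p did not pass at this age, with log2 changes of 0.09 (exact p = 0.568) in females and -0.10 (exact p = 0.364) in males.

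In females miR-100-5p fell late relative to all 4 other 5p strands, by -0.38 against miR-99b-5p (exact p = 1.08e-05, the smallest those arrays allow, adjusted p = 0.000433), -0.30 against miR-125a-5p, -0.21 against miR-125b-5p and -0.21 against miR-99a-5p. The younger ratios to miR-99b-5p lay between 0.528 and 0.636 and the older ones between 0.394 and 0.498. In males none of these passed, and the 2 that did were falls of miR-125a-5p relative to miR-125b-5p (-0.20, adjusted p = 0.0154) and to miR-99a-5p (-0.17, adjusted p = 0.0389).

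**Figure D4:**
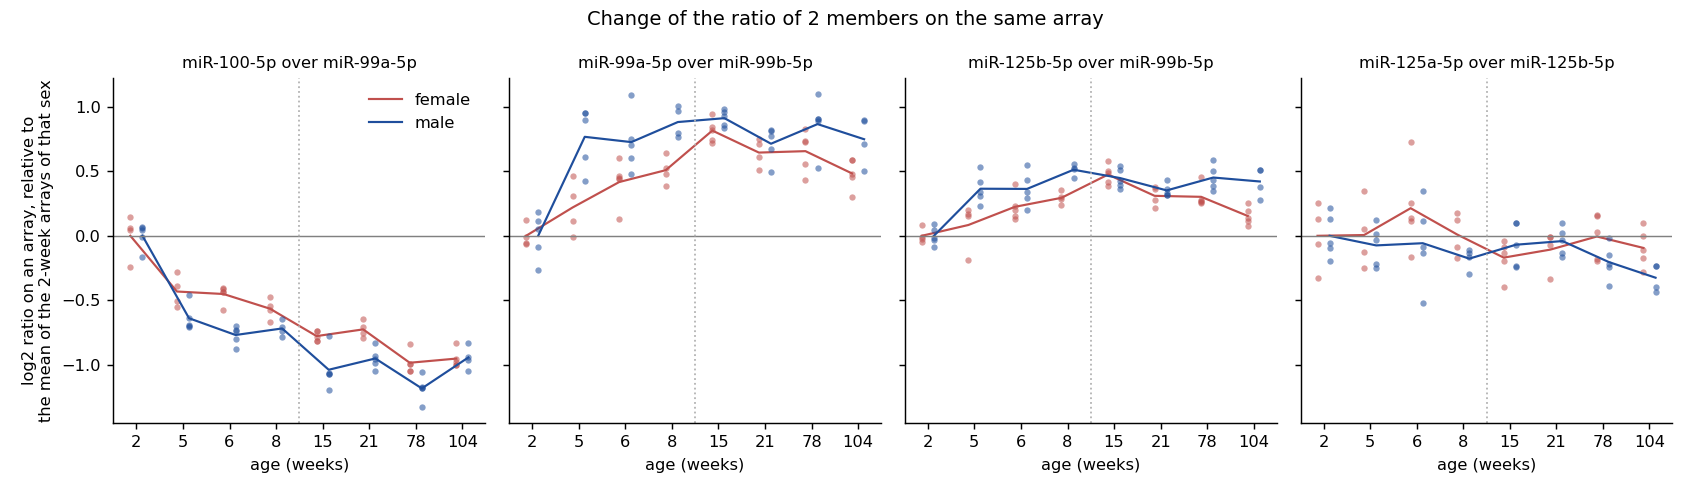
Log2 ratio of 2 strands on the same array, relative to the mean of the 2-week arrays of that sex, against age in weeks, with a point for each array, a line through the group means, females in red and males in blue. The ratio of miR-100-5p to miR-99a-5p falls after 2 weeks, by 0.48 in females and 0.71 in males on the log2 scale up to 5 to 8 weeks, while that of miR-125a-5p to miR-125b-5p changes by 0.09 and -0.10.

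The let-7 strands of the clusters were measured on the same arrays. Let-7e-5p, whose gene lies between Mir99b and Mir125a, fell after 2 weeks by -0.38 ± 0.12 (adjusted p = 0.0102) in females and -0.50 ± 0.13 (adjusted p = 0.00108) in males on the log2 scale. Its 2-week male levels of 12.9, 13.5, 13.3, 17.2 and 13.7 all lay above the 14 later males, at 6.39 to 12.5. On the chr11 cluster let-7c-5p rose in males by 0.28 ± 0.11 (adjusted p = 0.0358) and had a value of 0.18 ± 0.10 (adjusted p = 0.203) in females. Let-7a-5p had log2 values of 0.07 ± 0.090 and 0.02 ± 0.11. Let-7a-5p and let-7c-5p are each also encoded elsewhere in the genome, so neither signal belongs to a single cluster.

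Within groups of the same age and sex, some members varied together from animal to animal. Deviations from the group mean were correlated over the 74 arrays for all 10 pairs of 5p strands, and 6 of 10 passed a permutation test after adjustment over the 10. The highest were miR-100-5p with miR-99a-5p, at r = 0.845 and rho = 0.824 (permutation p = 1e-05, the smallest that 100000 permutations can give, adjusted p = 3.3e-05), and miR-125b-5p with miR-99b-5p, at r = 0.815 and rho = 0.817 with the same p-values. Without the 2 arrays farthest from the median, r was 0.829 and 0.80. The strands of the chr1 cluster, miR-99b-5p and miR-125a-5p, had r = 0.0672 and rho = 0.0539 (permutation p = 0.632, adjusted p = 0.632).

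The pair with the highest r, miR-100-5p and miR-99a-5p, was also a pair whose levels moved apart with age. All strands on an array share its scaling factor and slide. Over the 13695 pairs of miRNAs detected on all arrays the median r was 0.0986, and the highest 10% had r from 0.486 upwards. Among the passing pairs, r lay above 0.486 for the 2 highest and for miR-100-5p with miR-99b-5p (0.547). It lay below for miR-100-5p with miR-125b-5p (0.453), miR-99a-5p with miR-99b-5p (0.453) and miR-125b-5p with miR-99a-5p (0.339). How many of all those pairs would pass was not counted, so the number of passing member pairs has no baseline. With slide means also removed, the 2 highest pairs had r = 0.761 and r = 0.777, and miR-125a-5p with miR-99b-5p had 0.138. Within females and within males alone, r was 0.89 and 0.811 for the first pair and 0.832 and 0.824 for the second. By Spearman's rho, miR-125b-5p with miR-99a-5p (r = 0.339, adjusted p = 0.0321) did not pass, at 0.206 with an adjusted p of 0.184. The count depended on the scaling, with all 10 pairs passing when the percentile was taken over every miRNA of the array and 3 after quantile normalization.

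**Figure D5:**
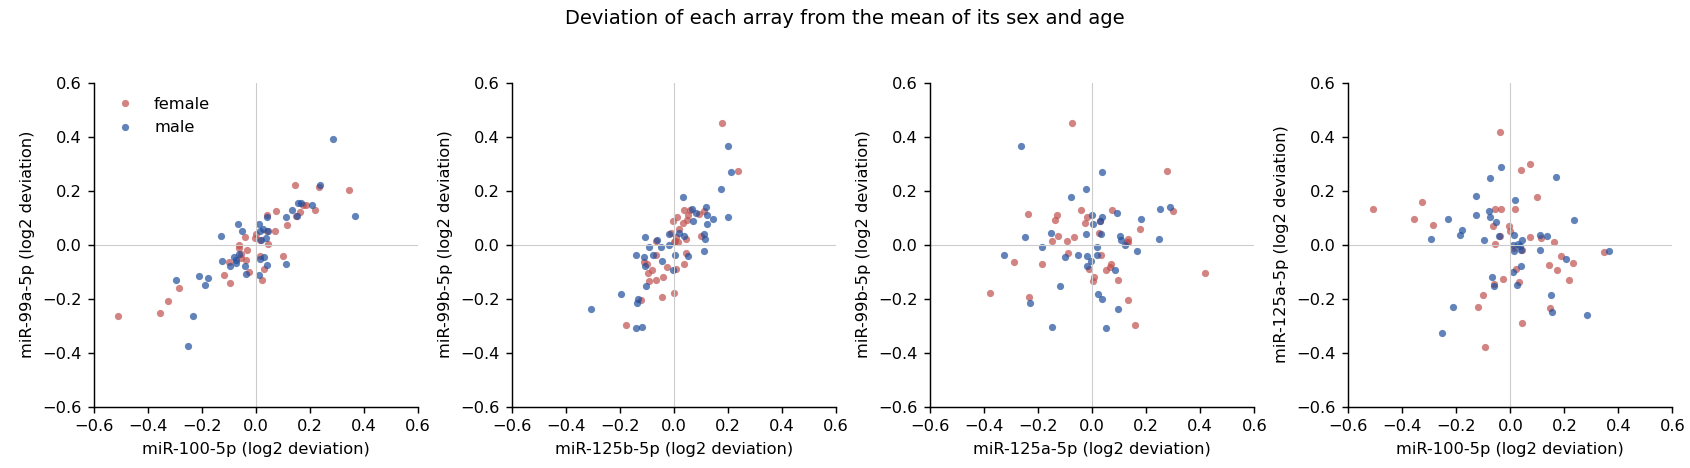
Log2 deviation of each array from the mean of its age and sex for 4 pairs of strands, females in red and males in blue. The first and second panels rise along a line, with r = 0.845 and r = 0.815, and the other panels show no such line, with r = 0.0672 for miR-125a-5p with miR-99b-5p and r = -0.157 for miR-100-5p with miR-125a-5p.

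Among the 165 other miRNAs detected on all arrays, those with the 16 group means most like miR-100-5p were miR-196c-5p, miR-196b-5p and miR-450a-5p (r = 0.953, 0.952 and 0.95 over the 16 group means, as a description that spans both sets of slides). MiR-455-3p led for both members of the chr1 cluster, with r = 0.908 for miR-99b-5p, followed by miR-93-5p and miR-17-5p at 0.863 and 0.856, and r = 0.817 for miR-125a-5p, followed by miR-342-3p and miR-99b-5p at 0.797 and 0.78. For miR-125b-5p they were miR-342-3p, miR-99b-5p and miR-10b-5p at 0.908, 0.748 and 0.741. MiR-99a-5p was most like miR-218a-5p, miR-26b-5p and the epithelial miR-200a-3p, at 0.892, 0.879 and 0.875, and its r with miR-100-5p was -0.472.

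Marker miRNAs of other cell types changed at the same ages. After 2 weeks, 4 of 7 detected tubule strands rose in females and 5 of 7 in males with none falling, and 3 of 5 strands of the smooth muscle and stroma miRNAs miR-143, miR-145, miR-199a and miR-214 fell in both sexes with none rising. The summed level of the latter ranged from 26.7 to 31.0 in 2-week females and from 28.6 to 31.7 in 2-week males, and at 5 to 8 weeks from 17.5 to 22.4 and from 18.3 to 21.8. In old males 7 of 7 tubule strands fell and 4 of 5 strands of the leukocyte miRNAs miR-142, miR-150 and miR-223 rose, with 5 of 7 epithelial strands falling and 3 of 5 smooth muscle and stroma and 2 of 3 erythroid strands rising. Of all miRNAs 20.3% fell and 9.32% rose in those males. In old females no tubule, epithelial or smooth muscle and stroma strand passed. Rising in them were 2 of 5 leukocyte, 1 of 3 erythroid and 1 of 2 liver strands, while 1 of 3 striated muscle strands fell. These marker counts were taken with the main scaling, on which the late male falls of the members depended. Both detected neural strands fell after 2 weeks in each sex. Of 7 epithelial strands 3 rose and 2 fell then in females and 4 rose in males, and 2 of 5 leukocyte strands rose in each sex. Of all miRNAs 15.4% rose and 21.9% fell after 2 weeks in females, and 25.1% rose and 25.4% fell in males. At 21 weeks the summed tubule level was 38.8 to 47.3 in females and 44.7 to 47.9 in males. Fewer cells of a type and less RNA per cell cannot be told apart in whole kidney, and the part of these markers in the members' changes was not tested. Without the 2-week male array that was high in miR-122, the members passing early numbered 5 in males, as with it.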

How the data were processed

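Total RNA of whole kidney from 74 independent F344 rats had been hybridised by the authors to Agilent rat miRNA arrays. The deposited scanner files hold intensities. Feature Extraction 10.7.3.1, named in their headers, had subtracted background and summarised 20 spots per miRNA as a total gene signal, without normalization between arrays, and undetected miRNAs hold 0.1. The authors' normalized table was not used, since a check against the scanner files found that most of its columns held another sample's array.

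Signals were scaled to their array's 75th percentile over the 311 miRNAs detected on any array, floored at 0.0171, which raised 2.71% of detected values, and log2 transformed. Limma 3.58.1 in R 4.3.3 fitted ages within each sex, and all 16 groups for sex, with Benjamini-Hochberg adjustment over 311 miRNAs and a threshold of 0.05. The functions were tested on simulated data. Python 3.11.15 ran exact and permutation tests. Named miRNAs were all members, the let-7 strands of their clusters, the 3 miRNAs most like each 5p strand, and markers. Members, lists and tests were chosen with earlier results of these data known. Groups came from the sample titles. Alternatives covered floor, scaling, background, spots, filters, test, slide and replicate number, and leaving out single arrays. A percentile by linear interpolation was added after seeing the data.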

Additional observations from a re-analysis of the deposited data

Results flagged for a closer look

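Of 128 sets of 4 or 5 arrays with a spread, 7 held an array far from the others, by a rule that chance meets in about 1 in 20 sets. All 7 were in weak 3p strands and none in the 5p strands, so the flags were not spread evenly over the strands. MiR-125a-3p stood out high at 0.496 in a 78-week female (others 0.188 to 0.258) and at 0.195 in a 5-week male (others 0.121 to 0.135). MiR-99a-3p stood out low at 0.0432 in a 5-week female (others 0.051 to 0.052) and at 0.0379 in a 5-week male (others 0.047 to 0.0477). MiR-99b-3p stood out high at 0.0352 in a 6-week female, at 0.0375 in a 5-week male and at 0.0463 in a 21-week male.

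The response to age differed between the sexes by a test of the difference for miR-99b-5p (interaction adjusted p = 0.0191) and miR-125a-5p (adjusted p = 0.0192). Neither passed with the percentile over always detected miRNAs, over all miRNAs or with normexp. The change from 15 to 21 to 78 to 104 weeks, males minus females, was -0.462 for miR-125a-5p, -0.365 for miR-99b-5p and -0.648 for miR-99b-3p on the log2 scale, none of which passed under those 3 settings.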

How the results depend on the processing

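No early, late or single-age sex difference that passed turned direction under the alternatives run. Among changes that had not passed, some turned under at least 1 setting: late male miR-99a-5p, miR-99b-5p, miR-125b-5p and miR-125a-3p, late female miR-99a-5p and miR-125b-5p, early female miR-99a-5p, miR-125a-5p and miR-99a-3p, and early male miR-99b-3p. Counts of members changed by over 1.5 times as follows. Requiring a fold of 1.5 left 2 (age in females), 4 (age in males), 0 (between the sexes), 0 and 2 (after 2 weeks in females and males) and 0 (late in males). With normexp and an offset of 50 these were 1, 4, 1, 0, 3 and 1, with 0 interactions and 4 unequal pairs of the 16. With the percentile over all miRNAs they were 1 for age in females, 1 and 3 after 2 weeks, 0 late in males and 0 interactions, with all 10 correlated pairs passing. With the percentile over miRNAs detected on all arrays, 0 interactions, 1 late change in females and 0 in males passed. Quantile normalization gave 1 interaction, 10 unequal pairs and 3 correlated pairs. Testing all miRNAs gave 4 interactions and 5 late male changes. Slide as a fixed block gave 4 interactions, 8 sex differences, 1 late female change and 6 late male changes, and as a random block 1 late female change. The cause was not tested.

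Leaving out 1 array gave 1 to 3 interactions (1 without 21-week female replicate 3), 2 to 5 sex differences (2 without 21-week female replicate 5 or 6) and 0 to 1 late female changes (1 without 5-week female replicate 2 or 6 or 78-week female replicate 6). Same-numbered arrays of opposite sex and the same age did not deviate together (mean r = -0.0513 over 28 pairs). With the replicate number as a replicate block, the members passing numbered 4 and 7 with age in females and males, 2 with an interaction, 4 between the sexes, 3 and 6 after 2 weeks, and 0 and 3 late. The weakest strands are limited by signal near background.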
